A study of Homo sapiens with 4 samples.

Results

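Siglecs are receptors of the immunoglobulin superfamily that bind sialic acid, the sugar that caps many cell surface glycans. The members examined were the 10 rows of the deposited table with the symbols CD22, CD33, SIGLEC1, SIGLEC5, SIGLEC7, SIGLEC9, SIGLEC10, SIGLEC11, SIGLEC14 and SIGLEC15, out of 58302 gene rows. RNA sequencing of total RNA was done in BLaER1, a human leukaemia line of B cell origin carrying an oestradiol-inducible form of the transcription factor C/EBPα. The undifferentiated group (n = 2 libraries) was cultured in RPMI medium with serum. The differentiated group (n = 2 libraries) had been kept for 5 to 6 days in medium with IL-3 (10 ng/ml), M-CSF and 100 nM oestradiol, a treatment that gives these cells macrophage features. Both groups are the same line, and the labels do not state whether a group's libraries came from separate cultures, so p-values cover no more than library-to-library spread, possibly of technical origin.

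Most Siglecs carry inhibitory motifs in their cytoplasmic tails. When a kinase of the Src family phosphorylates these motifs they recruit the phosphatases encoded by PTPN6 and PTPN11, which dampen signals from neighbouring receptors. CD22 is the Siglec of B cells and restrains the B cell receptor, whereas CD33 and its close relatives are typical of monocytes, macrophages and other myeloid cells. A few members, SIGLEC14 and SIGLEC15 among them, instead pair with the activating adaptor DAP12, the product of TYROBP.

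The labelled stages matched their markers. Levels are in TPM, a transcript abundance normalised for gene length and for the library's total. Of the B lineage markers, the surrogate light chain gene VPREB1 stood at 46.39 and 48.52 TPM in the undifferentiated libraries and 1.48 and 2.31 TPM in the differentiated ones. The B cell receptor component CD79A went from 27.98 and 14.73 to 2.3 and 2.58 TPM, its partner CD79B from 13.32 and 10.8 to 1.8 and 1.99 TPM, and the transcription factor PAX5 from 13.31 and 7.68 to 0.59 and 0.58 TPM. The summed level of 5 macrophage markers (CD14, CD68, CSF1R, MRC1 and CD163) was 7.17 and 6.17 TPM before and 468.55 and 534.06 TPM after differentiation. Nearly all of the sum before differentiation came from CSF1R, at 6.42 and 5.84 TPM. Markers of NK cells, mast cells and eosinophils, neutrophils, erythroid cells and fibroblasts summed to at most 1.72 TPM per list in any library, and the granule genes GNLY, CLC and ELANE were listed at 0 TPM in all 4 libraries. The T cell list summed to 109.9 and 51.47 TPM before and 4.65 and 6.9 TPM after differentiation, nearly all of it from the T cell receptor gene TRAC, with CD3D and CD3E at 0 TPM. The platelet list summed to 22.55 and 23.83 TPM once differentiated, against 0.09 and 1.11 TPM beforehand, nearly all of the former from PPBP, with PF4 at 0 and 0.14 TPM. The part of these genes in the Siglec results was not tested. The deposited unit keeps no record of sequencing depth, which is therefore unknown.

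The stretches upstream of 5 members are shown because these are the tested members for which a window was at hand. Sequences are those of RefSeq on GRCh38.p14, written 5′ to 3′ on the strand of the gene and limited to bases before the start site that no exon of GENCODE release 29 covers. The bases left out between the stretch and the RefSeq start number 0 for SIGLEC9, 160 for SIGLEC7, 16 for CD33, 161 for SIGLEC10 and 21 for CD22. SIGLEC9 (chr19:51124756-51124905, plus strand) and SIGLEC7 (chr19:51142209-51142298, plus strand) are neighbouring genes. CD33 (chr19:51224914-51225063, plus strand) and SIGLEC10 (chr19:51417804-51417892, minus strand) lie in the same cluster, and CD22 (chr19:35329016-35329165, plus strand) lies outside it, with its RefSeq start inside the gene as GENCODE draws it, so that the stretch is intronic there. Capitals mark each match within the stretches to TTCCTGT or its reverse complement, a sequence of the kind bound by ETS family transcription factors such as PU.1. Counted from the RefSeq start, the marked match begins at -32 in SIGLEC9, -190 in SIGLEC7 and -47 in CD33.
SIGLEC9: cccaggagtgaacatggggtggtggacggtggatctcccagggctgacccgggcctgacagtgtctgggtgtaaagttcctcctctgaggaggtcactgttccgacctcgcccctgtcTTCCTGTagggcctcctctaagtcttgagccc
SIGLEC7: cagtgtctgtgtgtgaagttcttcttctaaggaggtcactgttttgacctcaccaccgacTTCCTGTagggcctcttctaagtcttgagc
CD33: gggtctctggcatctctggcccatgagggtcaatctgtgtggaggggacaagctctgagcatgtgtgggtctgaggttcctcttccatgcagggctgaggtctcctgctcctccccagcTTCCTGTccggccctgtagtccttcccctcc
SIGLEC10: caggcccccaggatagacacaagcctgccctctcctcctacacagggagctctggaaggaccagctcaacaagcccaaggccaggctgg
CD22: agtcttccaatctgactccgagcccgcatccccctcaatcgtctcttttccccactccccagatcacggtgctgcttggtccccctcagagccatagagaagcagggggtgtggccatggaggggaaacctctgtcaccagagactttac

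SIGLEC9 and SIGLEC7 carry near-copies of the same stretch. In their full windows of 300 bases (250 before and 50 after the start site), 130 of 142 aligned bases were identical (91.5%), with a longest identical run of 66 bases. SIGLEC5 and SIGLEC14 were more alike still, with 265 of 286 aligned bases identical (92.7%) and an identical run of 163 bases. In the other 34 of 36 pairs of members the longest identical run was under 20 bases. Windows were found for 9 of the 10 members, and SIGLEC1 was not among them.

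The ETS-type letters TTCCTGT occurred on either strand in the windows of 6 of the 9 members (CD33, SIGLEC5, SIGLEC7, SIGLEC9, SIGLEC14 and SIGLEC15), against 7.07% of all 35116 windows of this length in the table. This motif was picked after the sequences had been read, and SIGLEC7 and SIGLEC9, like SIGLEC5 and SIGLEC14, share it within a duplicated stretch, so the 6 are not independent. The match did not sort the members by level: SIGLEC9, CD33 and SIGLEC7 hold it, and so do SIGLEC5, SIGLEC14 and SIGLEC15, which stayed below 0.2 TPM in every library. A PU.1-type sequence (GAGGAAG, either strand) was found in CD33 alone, at 2 places that lie outside the stretch shown, and in 13.6% of all windows. C/EBP-type (TTGCNNAA), EBF-type (CCCNNGGGA) and STAT-type (TTCNNNGAA) letters, searched on both strands, were in none of the 9 members' windows and in 10.5%, 8.86% and 7.66% of all windows. The ETS-type and PU.1-type letters share the core GGAA, and a match describes the letters only.

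The Siglec transcripts of BLaER1 cells changed from almost pure CD22 to a mixture led by SIGLEC9 and CD33. As deposited, the level summed over the 10 members was 27.5 and 18.59 TPM in undifferentiated and 25.08 and 32.97 TPM in differentiated cells. The groups overlapped on that scale. CD22 made up 94.4% and 96.4% of that sum before differentiation and 8.25% and 9.52% after it. SIGLEC9 made up 0.545% and 0.43% before and 35.9% and 30.4% after, and CD33 0.473% and 0.269% before and 28.4% and 33.9% after. SIGLEC7 (9.01% and 10.7%), SIGLEC1 (8.81% and 7.16%) and SIGLEC10 (8.33% and 7.16%) shared most of the remainder in differentiated cells. These shares are taken within a library and do not depend on how libraries are scaled to each other. The summed level does depend on it. Rescaled so that protein-coding genes alone make up the total, the sum was higher in both differentiated libraries. On that scale SIGLEC9 stood at 73.8 and 74.2 and CD33 at 58.5 and 83 after differentiation, against CD22 at 113 and 115 before it. In bulk RNA, fewer cells of a type and less RNA per cell cannot be told apart.

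**Figure D1:**
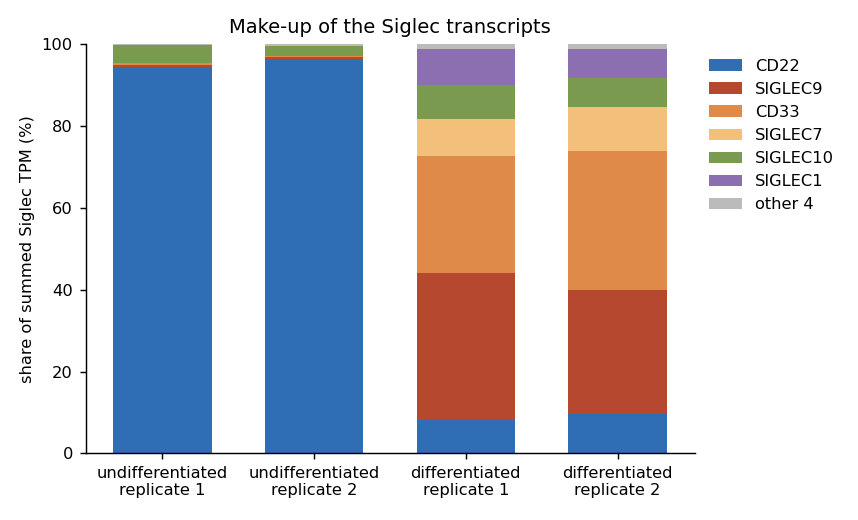
Share of the summed TPM of the 10 Siglec members (vertical axis, percent) taken by each member in each of the 4 libraries (bars); the grey segment joins SIGLEC5, SIGLEC11, SIGLEC14 and SIGLEC15. CD22 fills 94.4% and 96.4% of the undifferentiated bars and 8.25% and 9.52% of the differentiated bars, where SIGLEC9 and CD33 are the tallest segments.

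Of the 10 members, 6 reached at least 1 TPM in at least 2 libraries and were tested, with limma on log2(TPM + 1) and Benjamini-Hochberg adjustment over all 10180 genes that passed this filter. A gene is termed called when its adjusted p was below 0.05. Among the 6, 5 were called higher in differentiated cells and 1 was called lower, where 41.4% of all tested genes were called, 18.6% higher and 22.8% lower. For none of the 6 did the stages overlap, which was so for 70.0% of all tested genes. CD33, SIGLEC1, SIGLEC7 and SIGLEC9 passed the filter only through the differentiated libraries, in which they were high, so the count of 5 is partly set by the filter. Over all tested genes the median log2 difference was -0.14. Higher calls made up 44.8% of all calls as deposited, 65.6% after rescaling over protein-coding genes and 35.7% after rescaling without the 10 most abundant genes.

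CD22 (ENSG00000012124), the inhibitory co-receptor of the B cell receptor, fell. Undifferentiated libraries held 25.97 and 17.92 TPM of it, and differentiated libraries 2.07 and 3.14 TPM. Both differentiated libraries thus lay far below both undifferentiated ones, although the transcript did not disappear. The log2 difference was -2.66 ± 0.40 (SE, adjusted p = 0.000148). Without differentiated replicate 1 the difference was -2.45 and the call was lost (adjusted p = 0.0716). Among the protein-coding genes of a library, CD22 exceeded 95.4% and 95.6% before differentiation and 69.0% and 75.4% after it. The tested genes with the most similar pattern, by Euclidean distance of log2(TPM + 1) over the 4 libraries, were ZBTB8OS (distance 0.214), the small nuclear ribonucleoprotein gene SNRPF (0.355) and the B cell receptor component CD79A (0.37).

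SIGLEC9 (ENSG00000129450), an inhibitory receptor of monocytes and neutrophils, was the most abundant member after differentiation on the mean. Differentiated cells held 9.0 and 10.01 TPM of it, undifferentiated cells 0.15 and 0.08 TPM. The mean rose from 0.115 ± 0.0495 to 9.51 ± 0.714 TPM (SD, n = 2), a log2(TPM + 1) difference of 3.24 ± 0.36 (SE, adjusted p = 1.7e-05). In the differentiated libraries it exceeded 91.5% and 91.8% of the 19817 protein-coding genes in the table. Its nearest tested genes by pattern were the adaptor gene SLA (distance 0.106), the protease inhibitor A2M (0.122) and the proton pump subunit ATP6V0A1 (0.15).

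CD33 (ENSG00000105383), an inhibitory myeloid receptor used as a leukaemia antigen, rose to a like level. Differentiated cells held 7.13 and 11.19 TPM of it, undifferentiated cells 0.13 and 0.05 TPM. The mean was 9.16 ± 2.87 against 0.09 ± 0.0566 TPM (SD, n = 2), and the log2 difference was 3.19 ± 0.37 (SE, adjusted p = 2.36e-05). The differentiated values of CD33 enclosed those of SIGLEC9, so the order of these 2 members is within their spread. The ratio of SIGLEC9 to CD33 was 1.26 and 0.895 in the differentiated libraries. In contrast, the ratio of CD33 to CD22, a pair of levels compared within a library, was 0.00501 and 0.00279 before and 3.44 and 3.56 after differentiation. No exact permutation test of 2 against 2 libraries can give a two-sided p below 0.333, so no p is given for ratios.

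SIGLEC7 (ENSG00000168995), an inhibitory receptor of NK cells and monocytes, reached 2.26 and 3.52 TPM in differentiated cells, while each undifferentiated library listed it at 0 (adjusted p = 5.12e-05). SIGLEC1 (ENSG00000088827), the macrophage adhesion receptor sialoadhesin, which has a long extracellular part and no inhibitory motif, reached 2.21 and 2.36 TPM in differentiated cells and was likewise listed at 0 before (adjusted p = 4.07e-05). The groups did not overlap for either gene. No fold is given for them, since an exact 0 in such a table can also be a failed estimate. SIGLEC7 stood below SIGLEC9 in both differentiated libraries. The NK cell markers GNLY and KLRD1 were at 0 to 0.04 TPM in every library.

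SIGLEC10 (ENSG00000142512) is an inhibitory receptor of B cells and myeloid cells that binds CD24. Alone among the members that rose it stood above 0.2 TPM before differentiation, at 1.21 and 0.47 TPM, and was listed at 2.09 and 2.36 TPM after it. The groups did not overlap, but the gap was small, with a log2 difference of 0.84 ± 0.31 (SE, adjusted p = 0.0427). The call was lost under 8 of the 13 alternatives that could be fitted. These included leaving out differentiated replicate 1 (adjusted p = 0.183), differentiated replicate 2 (0.225) or undifferentiated replicate 2 (0.0878), and the fit without a filter on low values (0.221).

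SIGLEC11, SIGLEC5, SIGLEC14 and SIGLEC15 stayed below the filter. SIGLEC11, a receptor of tissue macrophages and microglia, was listed at 0.17 TPM in both differentiated libraries and at 0 in both undifferentiated ones. SIGLEC5, an inhibitory receptor of myeloid cells, stood at 0 and 0.12 TPM once differentiated and at 0 beforehand, and SIGLEC14, its activating counterpart, at 0.03 and 0.05 TPM once differentiated and 0 beforehand. SIGLEC15, best known from osteoclasts, was listed at 0.12 and 0.05 TPM once differentiated, against 0.04 and 0.07 TPM beforehand, so that its groups overlapped. None of the 4 reached 0.2 TPM, and TPM give no limit of detection.

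Values of the duplicated genes among these low members are uncertain in themselves. Of the distinct 50-base words in the GENCODE 29 transcripts of SIGLEC5, 82.2% also occur in another gene, mostly in the overlapping gene AC018755.2 and in SIGLEC14. The share was 33.1% for SIGLEC14 and 38.5% for SIGLEC11, whose main partner was SIGLEC16. AC018755.2 was listed at the same 0.03, 0.05, 0 and 0 TPM as SIGLEC14. By contrast the share was 0 for SIGLEC1, 0.366% for SIGLEC7, 0.916% for CD33, 1.04% for SIGLEC9 and 1.11% for CD22, and 8.43% for SIGLEC10. CD22, CD33, SIGLEC1, SIGLEC7 and SIGLEC9, which kept their calls under most alternatives, thus have nearly unique transcript sequence.

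**Figure D2:**
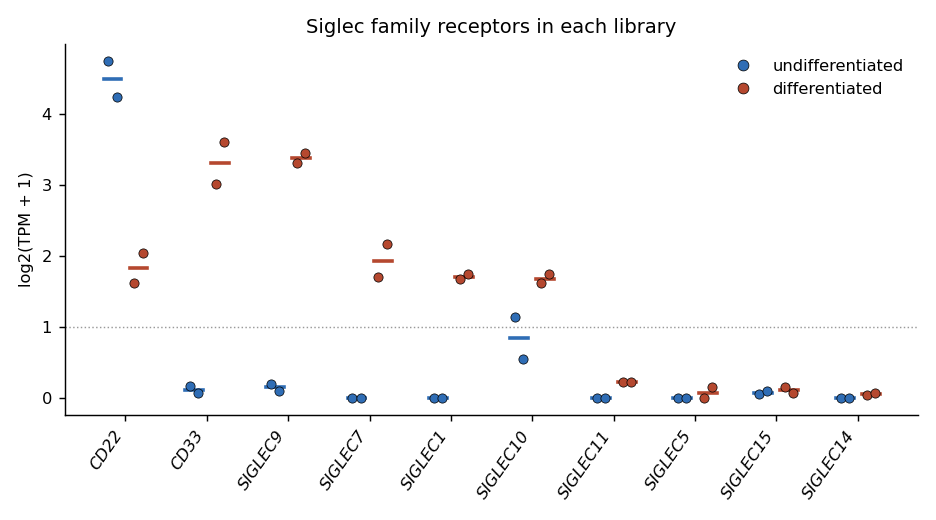
log2(TPM + 1) of the 10 Siglec members (vertical axis) in undifferentiated (blue) and differentiated (red) libraries, 1 point per library with a bar at the mean; the dotted line marks 1 TPM. CD22 is highest in the undifferentiated libraries (25.97 and 17.92 TPM), SIGLEC9 and CD33 are highest in the differentiated ones, and 4 members lie near 0 throughout.

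In differentiated cells the order of the levels was SIGLEC9, CD33, SIGLEC7, CD22, SIGLEC1 and SIGLEC10, with means of 9.51, 9.16, 2.89, 2.61, 2.29 and 2.23 TPM. The only gap wider than the spread between libraries was that between CD33 (at least 7.13 TPM) and SIGLEC7 (at most 3.52 TPM). The ranges of every other neighbouring pair in this order overlapped. In undifferentiated cells CD22 stood above SIGLEC10 and all other members in both libraries, and SIGLEC10 stood above SIGLEC9 and CD33, both of which were at most 0.15 TPM.

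The size of these differences depended on the scale of the libraries more than their direction did. Protein-coding genes took 12.2% and 13.5% of the summed TPM in differentiated and 23.0% and 15.6% in undifferentiated libraries. Rescaled so that protein-coding genes alone make up the total, CD22 stood at 113 and 115 before and 17.0 and 23.3 after differentiation, and SIGLEC9 at 0.652 and 0.513 before and 73.8 and 74.2 after. On that scale the undifferentiated libraries, which differed as deposited, lay close together for CD22. The log2 differences became -2.46 for CD22, 1.87 for SIGLEC10, 5.62 for CD33 and 5.57 for SIGLEC9, where the median over all tested genes was 0.37. A pseudocount of 1 weighs less on the larger rescaled values, which widens the difference of genes near 0. On this scale SIGLEC11 was also tested and called, at 1.39 and 1.26 after and 0 before differentiation (adjusted p = 0.00872). It passed the filter there only through the differentiated libraries, so that call is partly set by the filter. In the limma fit of the deposited values without a filter SIGLEC11 was not called (adjusted p = 0.0801). CD33, SIGLEC1, SIGLEC7 and SIGLEC9 kept their call and direction under every alternative in which they were tested. These genes had passed the filter only through the differentiated libraries, so this stability is partly set by the filter. SIGLEC1 and SIGLEC7 were listed at 0 in both undifferentiated libraries. Leaving out an undifferentiated library could therefore not change their difference (1.72 and 1.94).

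**Figure D3:**
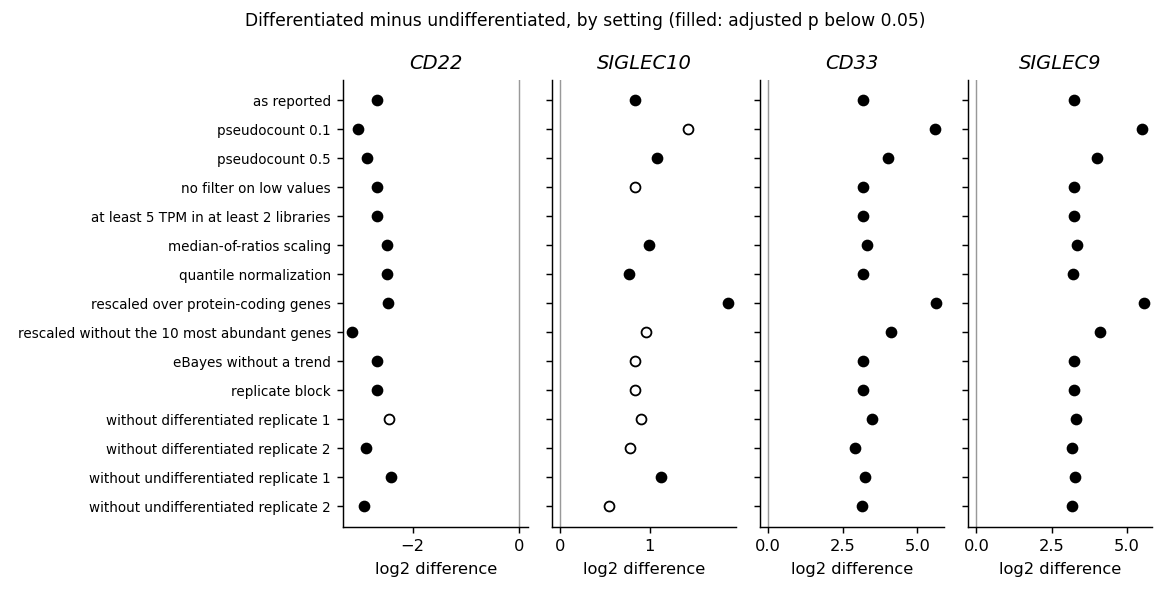
Difference in log2 values, differentiated minus undifferentiated (horizontal axes), for 4 members as reported and under each alternative (rows); filled circles have an adjusted p below 0.05 and open circles do not, and an absent circle means that the gene did not pass that filter. CD33 and SIGLEC9 are filled in every row, CD22 is open only without differentiated replicate 1, and SIGLEC10 is open in 8 rows.

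Of the 5 members called higher, 4 lie in one cluster on chromosome 19, which holds 4 of the 6 tested members. Most genes between those 4 stayed below the filter. In chromosomal order from SIGLEC9 to SIGLEC14 the table holds 18 protein-coding genes with a symbol, 10 of them Siglec or Siglec-like genes. At the start of this row stand SIGLEC9, SIGLEC7 and CD33, all called higher. The next genes, SIGLECL1, IGLON5 and VSIG10L, were at most 0.7 TPM in every library. ETFB, an electron transfer protein of mitochondria and the only tested gene of the 8 that are not Siglecs, was listed at 4.70 and 6.38 TPM once differentiated, against 4.95 and 5.56 TPM beforehand, and was not called. SIGLEC10 follows further on, and beyond it SIGLEC8, SIGLEC12, SIGLEC6, SIGLEC5 and SIGLEC14 were at most 0.12 TPM in every library. CD22 and SIGLEC1 lie outside this cluster.

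**Figure D4:**
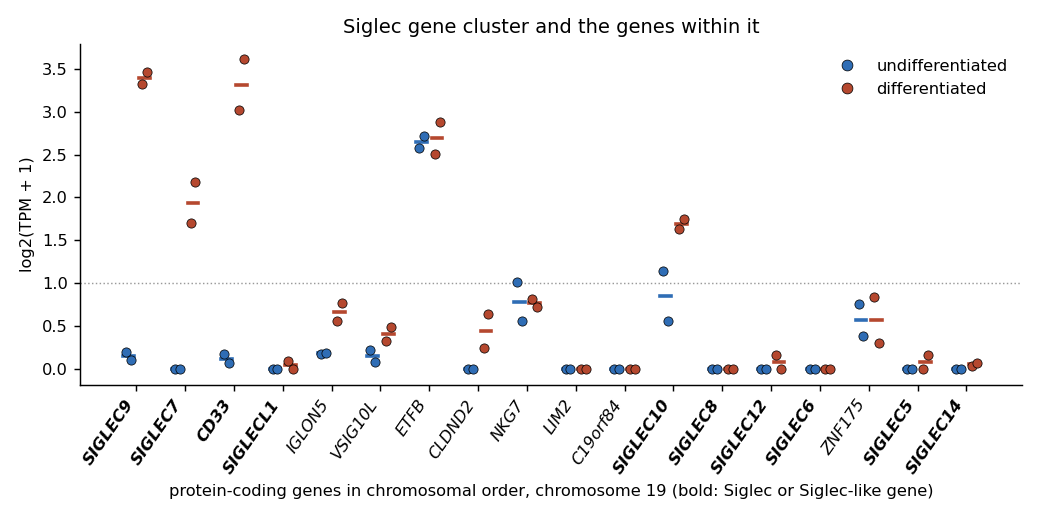
log2(TPM + 1) of the 18 protein-coding genes from SIGLEC9 to SIGLEC14 on chromosome 19, in chromosomal order (horizontal axis, not to scale; Siglec and Siglec-like genes in bold), 1 point per library with a bar at the mean, undifferentiated in blue and differentiated in red. Of the tested genes, SIGLEC9, SIGLEC7, CD33 and SIGLEC10 separate the stages, while ETFB lies at like levels in both. Most other genes lie near 0, and among these IGLON5, VSIG10L and CLDND2 also stand higher in the differentiated libraries.

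The remaining family genes added little. SIGLEC6 and SIGLEC8 were listed at 0 TPM in all 4 libraries. SIGLEC12 was listed at 0.12 TPM in differentiated replicate 1 and at 0 elsewhere, and SIGLEC16 at 0.19 and 0.12 TPM in differentiated cells only, with 0 listed for both other libraries. MAG, the myelin Siglec, was listed at 1.12 and 0 TPM once differentiated, against 0 and 0.13 TPM beforehand, so its libraries overlapped. None of these 5 genes passed the filter.

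Of 11 listed signalling partners of Siglecs 10 were tested, and 6 were called higher, 1 lower and 3 not called, where 18.6% of all tested genes were called higher and 22.8% lower. The median log2 difference of the 10 was 1.44, beside -0.14 over all tested genes. TYROBP and HCST passed the filter only through the differentiated libraries, in which they were high. The count of 6 and the median are thus partly set by the filter. TYROBP, the adaptor that pairs with SIGLEC14 and SIGLEC15, was listed at 66.32 and 77.62 TPM once differentiated, against 0.15 and 0 TPM beforehand (adjusted p = 1.56e-07), although both of these Siglecs were near 0. HCST, a related adaptor, was listed at 19.15 and 27.8 TPM once differentiated, against 0.11 and 0.21 TPM beforehand (adjusted p = 3.78e-06). LYN, a Src family kinase that phosphorylates the tail of CD22, was listed at 24.51 and 29.4 TPM once differentiated, against 3.72 and 1.63 TPM beforehand (log2 difference 2.98, adjusted p = 8.43e-05). SYK, the kinase downstream of DAP12, was listed at 17.57 and 24.14 TPM once differentiated, against 3.17 and 1.55 TPM beforehand (log2 difference 2.73, adjusted p = 0.000158). All 10 tested genes of the list, these 4 included, separated the stages without overlap, as did 70.0% of all tested genes.

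Of the phosphatases that Siglec tails recruit, PTPN11 was called lower and PTPN6 was not called. PTPN11 was listed at 9.68 and 6.59 TPM once differentiated, against 28.17 and 21.17 TPM beforehand, a log2 difference of -1.50 ± 0.39 (SE, adjusted p = 0.00733). PTPN6 was listed at 38.76 and 40.17 TPM once differentiated, against 25.13 and 24.12 TPM beforehand, and was not called as deposited (log2 difference 0.66, adjusted p = 0.159). Median-of-ratios scaling made it a higher call (adjusted p = 0.0397), as did quantile normalization (0.00971) and rescaling over protein-coding genes (0.00406). Within a library, the ratio of PTPN6 to PTPN11 was 0.892 and 1.14 before and 4 and 6.1 after differentiation. INPP5D, the lipid phosphatase SHIP, rose to 16.38 and 16.31 TPM from 5.64 and 2.58 TPM (adjusted p = 0.00303), and the adaptor GRB2 to 15.61 and 19.79 TPM from 9.19 and 6.88 TPM (adjusted p = 0.041). CBL and SHC1, with log2 differences of 0.66 and 0.52, were not called as deposited. CBL was called higher with median-of-ratios scaling (adjusted p = 0.0153), quantile normalization (0.03), rescaling over protein-coding genes (0.00496) and without undifferentiated replicate 1 (0.0479), and SHC1 with rescaling over protein-coding genes (0.0112). SOCS3 stayed below the filter at up to 0.81 TPM. PTPN11, PTPN6, INPP5D, GRB2, CBL, SHC1 and SOCS3 were chosen for naming after their values were seen.

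Leaving out a differentiated library ended most calls among these partners, and likewise most calls over all tested genes. The loss was therefore not particular to this list. TYROBP and HCST kept their calls in each such fit. With differentiated replicate 1 or 2 removed, adjusted p came to 0.0546 and 0.0676 for LYN, 0.0604 and 0.0909 for SYK, 0.139 and 0.261 for PTPN11, 0.186 and 0.187 for INPP5D, and 0.294 and 0.45 for GRB2.

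Of 13 listed genes that supply or remove the sialic acid ligand 8 were tested, with 3 called higher, 0 lower and 5 not called, and a median log2 difference of -0.01. Of all tested genes 41.4% were called, 18.6% higher and 22.8% lower. The share of this list called in either direction was near that background, but all 3 calls were higher. The genes called were NPL, NEU1 and CTSA. NPL and NEU1 passed the filter only through the differentiated libraries, so the count of 3 is partly set by the filter. NPL, the lyase that splits free sialic acid, was listed at 28.07 and 31.83 TPM once differentiated, against 0.35 and 0.28 TPM beforehand (log2 difference 4.56, adjusted p = 2.25e-06). The lysosomal sialidase NEU1 was listed at 3.50 and 3.34 TPM once differentiated, against 0.64 and 0.45 TPM beforehand (log2 difference 1.52, adjusted p = 0.00136). CTSA, the protective protein that stabilises NEU1, was listed at 17.06 and 19.62 TPM once differentiated, against 4.63 and 2.61 TPM beforehand (log2 difference 2.10, adjusted p = 0.000874). The biosynthetic genes GNE, NANS and CMAS, the sialidase gene NEU3 (1.04 and 0.64 TPM once differentiated, against 2.72 and 1.02 TPM beforehand) and CASD1, which encodes a sialic acid O-acetyltransferase, were not called. Without differentiated replicate 1 or 2 the CTSA call was lost (adjusted p = 0.114 and 0.139). Without undifferentiated replicate 2 the list had 7 calls, 3 higher and 4 lower, and with quantile normalization 5 calls, 3 higher and 2 lower.

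Sialyltransferases, the enzymes that attach sialic acid in the linkages which Siglecs tell apart, were called in both directions. Of 20 listed genes 11 were tested, and 5 were called higher, 2 lower and 4 not called, where 18.6% of all tested genes were called higher and 22.8% lower. The median log2 difference of the 11 was 0.59, beside -0.14 over all tested genes. ST3GAL6 and ST3GAL5 passed the filter only through the differentiated libraries, and ST8SIA2 and ST3GAL4 only through the undifferentiated ones. The counts in both directions are thus partly set by the filter. ST3GAL6 was listed at 13.19 and 9.54 TPM after differentiation and at 0 in both libraries before it (adjusted p = 1.01e-05). ST3GAL1 was listed at 20.2 and 18.95 TPM once differentiated, against 1.83 and 0.7 TPM beforehand (log2 difference 3.23, adjusted p = 4.19e-05). ST6GAL1, which builds the linkage that CD22 prefers, was listed at 15.63 and 17.52 TPM once differentiated, against 7.06 and 4.03 TPM beforehand (log2 difference 1.46, adjusted p = 0.00953). Its level thus rose where that of CD22 fell, but the call was lost without differentiated replicate 1 or 2 (adjusted p = 0.226 and 0.276).

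ST3GAL5, the enzyme that makes the ganglioside GM3, was listed at 3.28 and 1.5 TPM once differentiated, against 0.24 and 0.32 TPM beforehand (adjusted p = 0.00201). ST6GALNAC6 was called higher at 3.12 and 4.03 against 1.47 and 1.08 TPM (adjusted p = 0.0357). In the other direction, ST8SIA2, which makes polysialic acid, went to 0.07 and 0.05 TPM from 1.12 and 1.26 TPM (adjusted p = 0.00038) and ST3GAL4 to 0.35 and 0.54 TPM from 1.21 and 1.41 TPM (adjusted p = 0.0244). ST6GALNAC6, ST8SIA2 and ST3GAL4 were chosen for naming after their values were seen. The list had fewer calls without differentiated replicate 1 or 2, and so had the whole set of tested genes. Besides ST6GAL1, the sialyltransferase calls lost without 1 library were those of ST3GAL1 without differentiated replicate 1 (adjusted p = 0.0524), ST6GALNAC6 without differentiated replicate 1 or 2 (0.218 and 0.31), and ST3GAL4 likewise (0.173 and 0.0716).

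**Figure D5:**
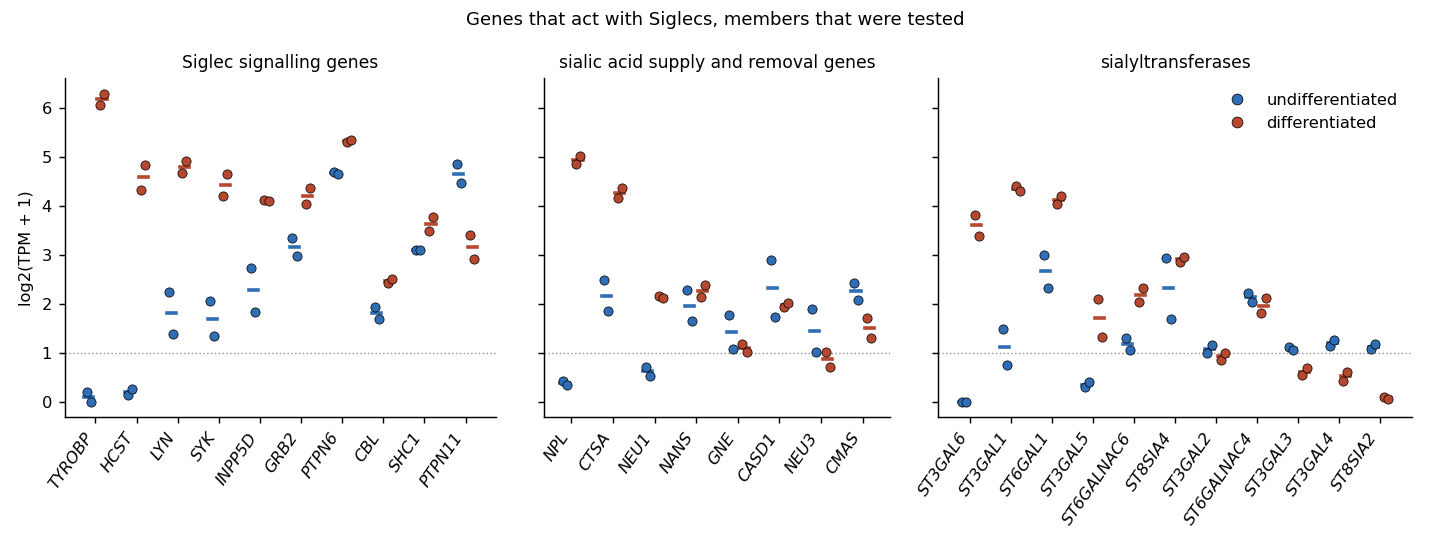
log2(TPM + 1) of the tested genes of 3 lists, namely Siglec signalling genes, sialic acid supply and removal genes, and sialyltransferases, ordered within a list by log2 difference, with 1 point per library, a bar at the mean, undifferentiated in blue and differentiated in red; the dotted line marks 1 TPM. TYROBP, HCST, NPL and ST3GAL6 show the widest gaps between the stages, and PTPN11 and ST8SIA2 are the clearest cases of lower levels in differentiated cells.

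Genes of proteins known as ligands of single Siglecs were called in both directions. Of 10 listed genes 7 were tested, with 3 called higher, 2 lower and 2 not called, beside 18.6% higher and 22.8% lower over all tested genes. The higher calls were PTPRC, SELPLG and C1QA. All 3 passed the filter only through the differentiated libraries, in which they were high, so that count is partly set by the filter. CD24, the ligand of SIGLEC10, was listed at 1.43 and 3.37 TPM once differentiated, against 111.81 and 75.95 TPM beforehand (adjusted p = 2.82e-06). CD52, whose soluble form also binds SIGLEC10, was at like levels, with 8.02 and 8.54 TPM once differentiated, against 9.02 and 10.27 TPM beforehand (adjusted p = 0.712). The log2 difference of CD52 changed sign with the scaling, from -0.20 as deposited to 0.34 over protein-coding genes. PTPRC, which encodes CD45, a ligand of CD22, was listed at 50.77 and 56.71 TPM once differentiated, against 0.01 and 0.06 TPM beforehand (adjusted p = 2.73e-07). CD22 and this ligand were therefore high at opposite stages.

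C1QA, a complement chain that binds CD33, was listed at 24.56 and 32.43 TPM after and 0 in both libraries before differentiation (adjusted p = 1.55e-06). SELPLG, the selectin ligand PSGL bound by SIGLEC5, was listed at 9.99 and 13.62 TPM once differentiated, against 0.02 and 0 TPM beforehand (adjusted p = 9.66e-06). SPN, the sialylated surface protein CD43, was listed at 3.75 and 4.52 TPM once differentiated, against 13.69 and 10.21 TPM beforehand (log2 difference -1.33, adjusted p = 0.014), and its call was lost without differentiated replicate 1 or 2 (adjusted p = 0.305 and 0.24). LGALS3BP was listed at 2.29 and 2.35 TPM once differentiated, against 3.25 and 3.1 TPM beforehand, and was not called (adjusted p = 0.5). AOC3, MUC1 and MUC16 were at most 0.27 TPM in every library.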

How the data were processed

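The deposited table holds TPM in 1 column per library for 58302 gene rows, made by the authors with Trimmomatic, STAR and RSEM per the submitters' processing notes. Their versions and settings, and the build and annotation used, are not given in the sources here. TPM have the same sum in each library, so abundant RNAs lower all other values, and RSEM divides reads among similar genes. Libraries were stranded, per the labels' protocols. Gene types, gene order and transcript sequences came from GENCODE release 29, which holds 58039 of the IDs. Promoter windows came from RefSeq on GRCh38.p14.

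The 10180 genes reaching 1 TPM in 2 or more libraries were compared between stages on log2(TPM + 1) with limma 3.58.1 in R 4.3.3 (moderated variances with a trend, two-sided, 2 residual and 10.9 prior degrees of freedom, Benjamini-Hochberg over all tested genes). Fold changes on this scale understate those of low genes. Sequences were aligned with Biopython 1.88. On simulated data for this comparison (10180 genes, 200 changed, 20 data sets) 7.16%, 71.9% and 99.9% of genes changed by 1, 2 and 4 on the log2 scale were recovered, with 3.63% false calls. These rates hold for that setting and not for the data, in which 41.4% of tested genes were called. The simulation also had no shift common to a library. In the data, undifferentiated replicate 1 exceeded replicate 2 by a median of 0.505 on the log2 scale.

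Members and lists were chosen with earlier results of these data known. Named genes are the 10 members, 5 other family genes, 10 protein ligands, the 4 largest called differences and the most abundant gene of each partner list, and the 3 genes nearest in pattern to the leading member of each stage. Other names were chosen after values were seen. The alternatives were other pseudocounts, filters, scalings, variance models, a replicate block and leaving out each library. A B lineage marker is not reported here.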

Additional observations from a re-analysis of the deposited data

How the results depend on the processing

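CD33, SIGLEC1, SIGLEC7 and SIGLEC9 kept call and direction under every alternative in which they were tested, CD22 under 13 of 14 and SIGLEC10 under 5 of 13, and no member changed direction. For CD33, SIGLEC1, SIGLEC7 and SIGLEC9, which passed the filter only through the differentiated libraries, this is partly set by the filter. The number of members called was 3 with a filter of 5 TPM, which tested 3, and 4 to 6 with a library left out. Over all genes it was 4216, and 1260 without a filter, 2436 with a filter of 5 TPM and 1271 to 5652 with a library left out (1293 and 1271 without differentiated replicate 1 and 2, 5652 without undifferentiated replicate 2). The median log2 difference of all tested genes was -0.14, and 0.04, -0.08, 0.37 and -0.34 with median-of-ratios scaling, quantile normalization, rescaling over protein-coding genes and rescaling without the 10 most abundant genes. Higher calls made up 44.8% as deposited, 65.6% over protein-coding genes and 35.7% without the 10 most abundant genes. The number of genes tested differed too. Calls were 4216 of 10180 as deposited, 1260 of 29186 without a filter and 2436 of 4511 with a filter of 5 TPM. Over protein-coding genes they were 6255 of 11945. The fits without a filter and over protein-coding genes each tested 11 signalling genes, against 10 as deposited. Siglec signalling genes had 4 calls without a filter, 11 over protein-coding genes and 2 to 8 with a library left out, against 7. Supply and removal genes had 1 call without a filter, 5 with quantile normalization, 5 when rescaled over protein-coding genes and 2 to 7 with a library left out, against 3. Sialyltransferases had 2 calls without a filter, 3 with a filter of 5 TPM and 3 to 8 with a library left out, against 7. The log2 difference of CD52 turned to 0.0103 (quantile normalization) and 0.34 (protein-coding genes), and that of LGALS3BP to 0.10 over protein-coding genes. Where calls changed, the cause was not tested.

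The replicate numbers are not stated to mark a shared culture or day, and replicate differences of the 2 stages correlated across genes with r = -0.02. With the replicate number as a block 3766 genes were called, and 5 members, SIGLEC10 being the member lost (adjusted p = 0.0552). The block gave 6, 3 and 6 calls among signalling, supply and removal, and sialyltransferase genes. TPM carry no depth, so no detection limit can be given for members near 0.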

Other observations

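The table also lists 9 further rows with a Siglec name, 8 pseudogenes and the Siglec-like gene SIGLECL1, of which 4 were at 0 TPM in all 4 libraries. SIGLEC17P, which lies between SIGLEC7 and CD33, held 1.18 and 0.36 TPM in differentiated libraries against 0.03 and 0.16 TPM in undifferentiated ones. SIGLEC22P, which shares 37 words of 50 bases with CD33 transcripts, was listed at 0.56 TPM in differentiated replicate 1 and at 0 elsewhere. SIGLEC18P, the neighbour of SIGLEC9 on its other side, was listed at 0.27 and 0.08 TPM in differentiated cells and at 0 in undifferentiated cells. Beyond the far end of the Siglec cluster, the formyl peptide receptor gene FPR1 held 7.21 and 9.77 TPM once differentiated and 0 in both libraries beforehand. FPR3 was listed at 2.23 and 2.49 TPM once differentiated, against 0.07 and 0 TPM beforehand. SPACA6, between these genes and SIGLEC14, was listed at 2.96 and 3.55 TPM once differentiated, against 0.91 and 1.29 TPM beforehand. These rows were chosen after their values were seen, and no test result is given for them.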
